A study of Mus musculus with 6 samples.

Results

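Cytosolic ribosomal proteins are the protein part of the ribosomes that translate nuclear-encoded mRNA, and each small or large subunit needs 1 copy of nearly every one of them. Their mRNAs are among the most abundant of growing cells and are known to be translated together, under control of the mTOR pathway, through a run of pyrimidines at their 5′ end. In mouse and human, loss of single members causes tissue-specific defects, of the axial skeleton and pigment in mouse and of red cell production in human Diamond-Blackfan anaemia. The genes followed here were taken by name, as all probe sets that the array annotation gives to a single symbol of the form Rpl or Rps with a number (with a, x or l after it in some) or to Rplp0, Rplp1 or Rplp2. This gave 98 probe sets of 45 genes, among 45037 probe sets on the array once controls were left out, of which 34945 were annotated to 1 gene (18193 genes).

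The RNA came from left and right GFP-positive motoneuron regions of the cervical spinal cord of 3 littermate mouse embryos at E11.5. Each embryo gave a left and a right pool from the same sections, and each pool was hybridised to 1 Affymetrix array (6 in all). All 6 pools were from HB9::GFP transgenic embryos, so both sides carried the reporter, and no treatment, mutant or wild-type group was measured. GFP under the promoter of HB9 (Mnx1), a homeodomain factor of motoneurons, marked the region for laser capture. A whole region was captured, so cells lying among the motoneurons were collected too. The captured RNA was amplified before labelling. The study asked which transcripts differ between the left and right motoneurons. Values are array signals on a linear scale, which the authors computed with MAS5 and which have the same trimmed mean, 500.003, on each array. The ratio of right to left within an embryo is given as log2(R/L), where 0 means equal signal, and signals of an embryo are given as left against right.

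The array reads ribosomal protein mRNAs unevenly, since many of these genes have processed pseudogenes of nearly the same sequence. A further 110 probe sets were annotated to a ribosomal protein symbol together with other symbols, and their values are given only as a group. Rpl3, Rpl5, Rpl10, Rpl24 and Rplp1 had shared probe sets alone and are not described one by one, and no probe set was annotated to Rpl10l. Of the 98 single-gene probe sets, 83 (40 genes) reached a signal of 200 on at least 1 array, the limit of the study's methods, and were tested. The other 15 stayed at or below 184, and 5 genes (Rpl37, Rpl39l, Rpl3l, Rps16 and Rps27) had no others. Among them are 2 paralogs known for restricted expression, Rpl3l of striated muscle (highest signal 8.63) and Rpl39l of the testis (highest signal 41.2). A probe set's signal also depends on its probes, so signals of different probe sets are not ordered against each other.

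The 5′ ends of these genes are shown because they carry the shared control element. The letters run from 12 bases before to 18 bases after the start that RefSeq annotates on GRCm38.p6, and capitals mark an unbroken pyrimidine tract that opens with C at that start and goes on for at least 4 more C or T. Of the 8 genes with such a tract 5 are shown, and Rps15, Rpl12 and Rps25 are shown as genes without one at that start. The class depends on the annotated base. A run that begins shortly after it, as in Rpl12, was counted as no tract. Rps15 read higher on the right in embryo 1, as 38 of the 40 tested genes did at their brightest probe sets. Rpl12 and Rps25 were the only tested genes that did not, so they do not stand for the genes without a tract. Of the genes with a tract, the untested Rps27 did not either (log2(R/L) -0.19, right over left).
Rpl35, chr2:39005114-39005143, minus strand: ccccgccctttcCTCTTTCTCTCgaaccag
Rps10, chr17:27635227-27635256, minus strand: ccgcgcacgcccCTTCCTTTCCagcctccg
Rps18, chr17:33955648-33955677, minus strand: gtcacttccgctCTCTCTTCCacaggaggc
Rps6, chr4:86857350-86857379, minus strand: cggaagtcgggcCTCTTTTTCgtgacgcct
Rpl38, chr11:114668568-114668597, plus strand: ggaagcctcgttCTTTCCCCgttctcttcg
Rps15, chr10:80292419-80292448, plus strand: ggcagagctcgcgataactgcgcaagcgca
Rpl12, chr2:32961700-32961729, plus strand: ggagcaggatccgtcttttcggctttcggc
Rps25, chr9:44407702-44407731, plus strand: ttccgacatcttagcgaggctgctgtggtc
RefSeq promoter windows of 250 bases before to 50 bases after the start were matched for 39 of the 45 genes. A tract at the annotated start was found in 8 of the 39 (20.5%), against 3.01% of 27025 genes with a window. Of the letters known from promoters of this kind, CCGGAAG, the site of ETS family factors, was present on either strand in 19 of 39 (48.7%, against 9.93%), and AAGATGGC, the core of a YY1 site, in 3 (7.69%, against 3.19%). The GC box GGGCGG was found in 21 (53.8%, against 38.2%) and the TATA box letters TATAAA in 5 (12.8%, against 15.7%). None of these strings contains another, and a match is a description of the letters and not of a factor at work.

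Across the 3 embryos no ribosomal protein gene was called different between left and right. The fold rule of the methods asks for 1 direction shared by the 3 embryos, with log2(R/L) beyond 0.58 (about 1.5-fold) both for the mean and for 2 or more of the embryos. It took 0 of the 83 member probe sets. Over all 21853 tested probe sets, 862 (3.94%) met it, 524 higher on the right and 338 higher on the left. Most of these were dim. Of the 6985 with a mean signal of at least 1000, 13 met it on the right and 13 on the left. As 63 of the 83 members were that bright, their 0 does not set them apart. With limma, fitted with side and embryo as terms and with p adjusted by the Benjamini-Hochberg procedure over the whole tested table, 0 members passed 0.05, as did 0.00% of all probe sets. At an unadjusted p under 0.05 limma gave 0 of the 83 members against 742 of all tested probe sets (3.40%). The smallest member p was 0.0576, for Rps26 (adjusted p = 0.974, limma).

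In embryo 1 nearly all of these genes read higher in the right pool. Each gene was taken at its brightest tested probe set. The median log2(R/L) of the 40 genes was 0.53 in embryo 1, with 38 of 40 higher on the right, while it was -0.04 in embryo 2 (17 of 40 higher) and -0.05 in embryo 3 (10 of 40 higher). Over all tested probe sets the medians were 0.03, 0.03 and -0.00, so the member median stood apart in embryo 1 alone. Past a log2(R/L) of 0.58 on the right were 17 of 40 genes in embryo 1, where 19.0% of all tested probe sets were. In embryo 2 it was 1 gene, against 16.7%, and in embryo 3 it was 0, against 2.75%. Many probe sets past that limit were dim, and among the 6985 with a mean signal of at least 1000 only 7.92% passed it in embryo 1, against 26 of the 63 members that bright (41.3%). The mean of the 3 embryos had a median of 0.12 over the genes, with an SD of 0.33 between the embryo medians, and without embryo 1 it was -0.04. Whether the side difference of embryo 1 differs from that of the other embryos could not be tested, because each embryo had 1 pool per side. With 3 embryos a two-sided exact sign-flip test cannot go below 0.25 for any gene.

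**Figure D1:**
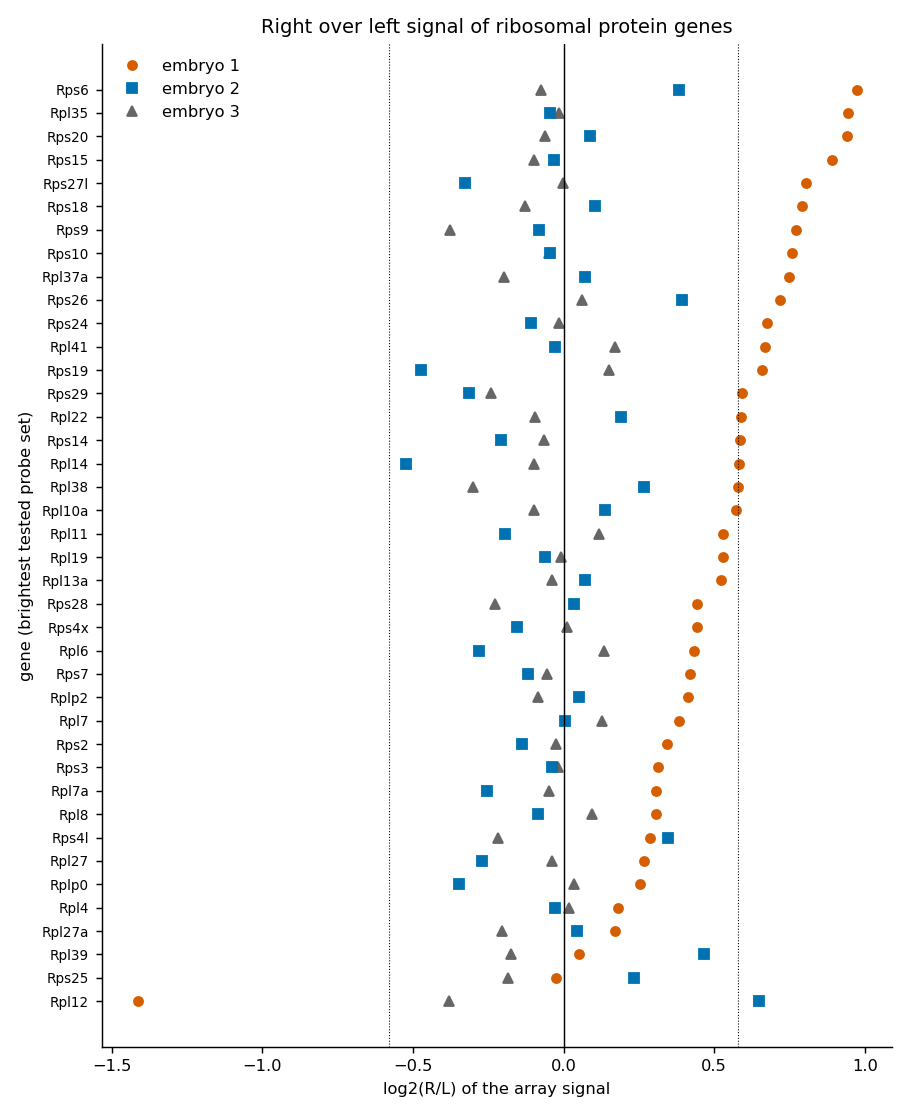
Log2(R/L) of the array signal (horizontal axis) for 40 ribosomal protein genes, each at its brightest tested probe set, ordered by embryo 1. Points are single embryos (circles embryo 1, squares embryo 2, triangles embryo 3) and dotted lines mark 0.58 on either side. In embryo 1, 38 of 40 genes lie right of 0 with the signals as deposited. Once the arrays are scaled to the spike-in controls it is 10 of 40. As deposited, 17 of 40 lie right of 0 in embryo 2 and 10 of 40 in embryo 3.

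The right pool of embryo 1 gave the highest of the 6 signals for 35 of the 40 genes, against 4817 of all 21853 tested probe sets. It did so for 1634 of the 6985 with a mean signal of at least 1000, and for 280 of the 522 with at least 10000. The left pool of the same embryo gave the lowest for 20 of the 40 genes. That pool was lowest for 4777 of all tested probe sets and for 187 of those 522. Relative to the mean of the 6 arrays, the member medians were -0.16 in the left and 0.37 in the right pool of embryo 1 on the log2 scale. In the other 4 pools they lay between -0.09 and 0.01. The probe sets shared with other symbols, which read largely the same transcripts, did likewise, and 90 of 100 tested were higher on the right in embryo 1, with a median log2(R/L) of 0.54, against -0.02 in both other embryos (48 and 38 higher).

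Both subunits showed it. The 19 measured genes of the large subunit had a median log2(R/L) of 0.52 in embryo 1 (18 higher on the right), then -0.03 and -0.04 in embryos 2 and 3. The 18 of the small subunit had 0.63 (17 higher), -0.04 and -0.06. The P stalk, which recruits the elongation factors to the large subunit, was measured through Rplp0 and Rplp2 and had 0.33, -0.15 and -0.02. Of genes mutated in human Diamond-Blackfan anaemia, 10 of 18 listed were measured, and all 10 were higher on the right in embryo 1, with a median of 0.63. Of 5 listed genes whose mouse mutants have axial, pigment or patterning defects, 4 were measured (Rpl38, Rps7, Rps19 and Rps20), with a median of 0.62 in embryo 1 and -0.02 and -0.06 in the others. The 7 measured genes with a pyrimidine tract at the start, opening with C, ranged from 0.41 to 0.97 in embryo 1 (median 0.76). The 27 with a window and no such tract ranged from -1.41 to 0.89 (median 0.44), so the ranges overlapped. In embryos 2 and 3 the medians were 0.05 and -0.09 with a tract, and -0.04 and -0.04 without. Runs that open with T, as in Rpl27a, Rpl7a and Rps24, were counted as no tract. So were runs that begin shortly after the annotated start, as in Rpl12 and Rps26. The split therefore rests on the annotated base and not on the presence of a run. The difference was not tested. The gene group had been picked for description with these arrays in view, so these medians are given as descriptions.

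Rpl35, a protein at the exit of the peptide tunnel, showed the shift at all 5 of its tested probe sets. Its brightest read 6030 in the left and 11595 in the right pool of embryo 1, 7438 against 7203 in embryo 2 and 7635 against 7563 in embryo 3. The pools other than the right one of embryo 1 stayed at or below 7635, and the sides overlapped. The left mean was 7034 ± 876 and the right mean 8787 ± 2439 (SD, n = 3), with a mean log2(R/L) of 0.29 ± 0.56 (adjusted p = 0.974, limma). Its 5 probe sets gave 0.94 to 1.35 in embryo 1.

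Rps20, a small subunit protein whose mutation darkens the skin of mice, read 4126 against 7910 in embryo 1, 5234 against 5562 in embryo 2 and 5779 against 5532 in embryo 3 at its brightest probe set. The right pool of embryo 1 lay above the 4 pools of embryos 2 and 3 and its left pool below them, the sides overlapped, and the mean log2(R/L) was 0.32 ± 0.54. Rps26, which lies at the mRNA exit channel, read 1406 against 2314 in embryo 1, 1607 against 2112 in embryo 2 and 1597 against 1667 in embryo 3. All 3 right pools lay above all 3 left pools, by 0.72, 0.39 and 0.06 on the log2 scale, and the mean of 0.39 ± 0.33 did not meet the fold rule. At the brightest probe set of each gene, Rps26 and Rpl7 were the 2 genes higher on the right in all 3 embryos, and 0 were lower in all 3. Over all 83 tested member probe sets, 6 were higher and 3 were lower on the right in all 3 embryos.

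Rps6, the small subunit protein that S6 kinase phosphorylates downstream of mTOR, had the largest mean log2(R/L), 0.43 ± 0.52, on a dim probe set that read 228 against 447, 347 against 452 and 316 against 300 in the 3 embryos. Rpl41, the smallest protein of the large subunit, read 3192 against 5071, 3311 against 3245 and 3256 against 3666 (mean log2(R/L) 0.27 ± 0.36). In both genes the sides overlapped.

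Only 4 genes had a mean log2(R/L) below 0 at their brightest probe set, and for 3 of them it was within 0.02 of 0. Rplp0, the scaffold of the P stalk, read 13526 against 16122 in embryo 1, 15234 against 11972 in embryo 2 and 13551 against 13887 in embryo 3, a mean log2(R/L) of -0.02 ± 0.30. Rpl27 gave -0.01 ± 0.27 and Rpl14 gave -0.01 ± 0.56, the latter from 0.58 in embryo 1 to -0.52 in embryo 2. Rpl12, which binds at the base of the stalk, went the other way: 963 against 361 in embryo 1, 212 against 333 in embryo 2 and 530 against 407 in embryo 3. Its ratio was -1.41, 0.65 and -0.38, so its direction was not shared by the embryos, and its mean of -0.38 ± 1.03 had an SD larger than itself (adjusted p = 0.974, limma).

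Other members of known role gave positive ratios in embryo 1, again with 1 pool per side and no test. Rpl11, which with Rpl5 and 5S RNA restrains Mdm2 when ribosome assembly fails, gave a log2(R/L) of 0.53, -0.19 and 0.12 in embryos 1, 2 and 3. Rps19, the gene most often mutated in Diamond-Blackfan anaemia, gave 0.66, -0.47 and 0.15. Rpl38, whose mouse mutant Tail-short has vertebral patterning defects and altered translation of Hox mRNAs, gave 0.58, 0.27 and -0.30. Rps4x, encoded on the X chromosome, gave 0.44, -0.16 and 0.01, and Rplp2 gave 0.41, 0.05 and -0.09. Rpl39, a small protein of the peptide tunnel read by 1 dim probe set, gave 0.05, 0.47 and -0.17 and so did not share the shift. Rps27l, a paralog of Rps27 known as a p53 target, read 727 against 1270 in embryo 1, 1088 against 868 in embryo 2 and 866 against 864 in embryo 3, with embryo 2 going to the left (-0.33).

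The 16 measured genes not singled out by size, spread or known role were all higher on the right in embryo 1, at a log2(R/L) of 0.17 to 0.89, against -0.31 to 0.14 in embryo 2 and -0.24 to 0.13 in embryo 3. Each of them read highest in the right pool of embryo 1 except Rpl27a, a large subunit protein with a dim probe set (407 to 509). Rps15, which is needed for export of the small subunit from the nucleus, read 2196 against 4073 in embryo 1, 2811 against 2747 in embryo 2 and 2726 against 2548 in embryo 3, the widest step of these genes (0.89). Rpl13a, known from macrophages for silencing inflammatory mRNAs once it leaves the ribosome, read 20450 against 29352 in embryo 1, 20674 against 21714 in embryo 2 and 23849 against 23212 in embryo 3. Rpl4, whose extension lines the peptide tunnel, was the steadiest and read 21241 to 22029 in all pools but the right one of embryo 1, which read 24357.

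Related genes outside the symbol rule had medians from -0.03 to 0.63 in embryo 1. Of 9 listed ribosomal protein genes or relatives that the symbol rule leaves out, 6 were measured, with medians of 0.63, -0.16 and 0.08 in embryos 1, 2 and 3. Among them Fau, which encodes a small subunit protein fused to a ubiquitin-like one, read 997 and 2066 in embryo 1 and 1282 to 1536 in the other 4 pools. The 76 mitochondrial ribosomal protein genes had medians of 0.25, -0.13 and -0.02, with 53 of 76 higher on the right in embryo 1. The 8 measured elongation factors (of 9) had 0.23, 0.03 and 0.02, and the 24 initiation factors (of 28) had -0.03, -0.06 and 0.01. The 38 ribosome biogenesis genes (of 40) had 0.08, 0.01 and 0.04, and the 15 genes of mTOR signalling and its control of these mRNAs (of 17) had 0.07, 0.07 and -0.02. These differences between lists were not tested.

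With limma 0 genes of these lists passed 0.05 after adjustment, and 2 met the fold rule, both higher on the right and both dim. Taf1b, a subunit of the RNA polymerase I factor SL1, read 93.3 against 190 in embryo 1, 118 against 355 in embryo 2 and 192 against 239 in embryo 3 (mean log2(R/L) 0.97 ± 0.64). Eif4ebp1, a repressor of cap-dependent translation that mTOR inactivates, read 73.4 against 283, 72.6 against 117 and 108 against 139 (1.00 ± 0.83). In Eif4ebp1 all 3 right pools lay above all 3 left pools, while in Taf1b each right pool was above the left pool of its own embryo and the sides overlapped across embryos. Neither gene reached the signal limit for testing in a left pool. Taf1b reached it in the right pools of embryos 2 and 3, and Eif4ebp1 in the right pool of embryo 1 alone. Their entry to the tests and their calls toward the right therefore rest in part on the same signals.

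**Figure D2:**
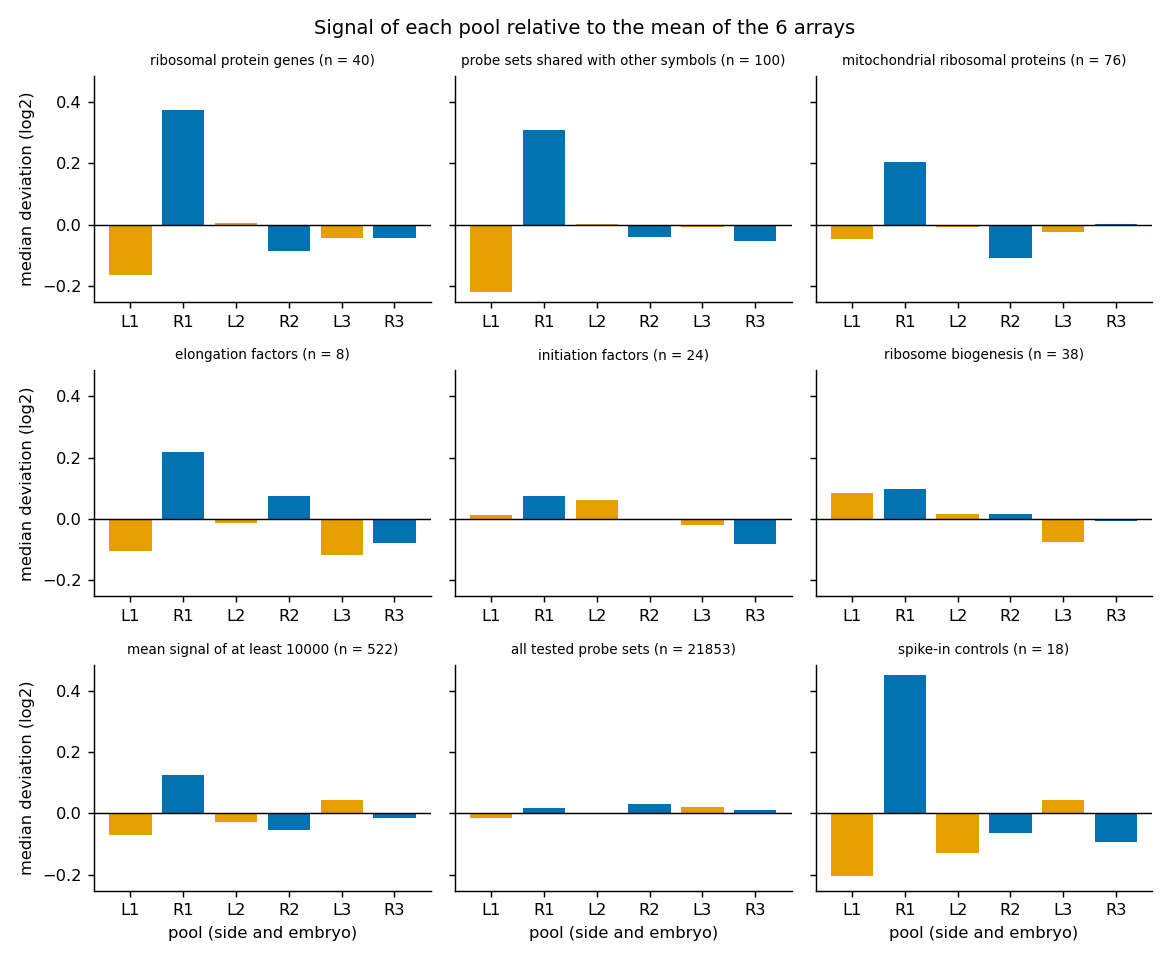
Median deviation of each pool from the mean of the 6 arrays (vertical axis, log2 scale) for ribosomal protein genes, related gene lists, bright probe sets, all tested probe sets and the spike-in controls, with n probe sets in each panel. Bars are left (orange) and right (blue) pools of embryos 1 to 3. The ribosomal protein genes stand at 0.37 and the spike-in controls at 0.45 in the right pool of embryo 1.

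Several other measures moved in the same pool. The 18 probe sets of the bacterial and phage spike-in controls bioB, bioC, bioD and cre, which by standard practice are added in equal amounts to the hybridisation of every array, read higher in the right than in the left pool of embryo 1 in 18 of 18, with a median log2(R/L) of 0.66 (0.06 and -0.12 in embryos 2 and 3). All 18 were highest of the 6 arrays in that pool. The 3 probe sets for 18S rRNA had medians of 0.53, 0.02 and -0.11. The ratio of 3′ to 5′ signal of actin, a sign of how far the copied RNA reaches, was 2.51 in that pool and 1.90 to 2.24 in the others, while that of Gapdh was 3.25 against 2.65 to 3.37. Among the 522 probe sets with a mean signal of at least 10000 the median log2(R/L) in embryo 1 was 0.20, and 396 were higher on the right. The median of the member genes was taken mostly over dimmer probe sets. Member genes with a brightest probe set of at least 10000 gave 0.18 (Rpl4) to 0.59 (Rpl22).

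When the arrays were scaled to the spike-in controls, a setting chosen after the data were seen, the member median in embryo 1 turned to -0.16, with 10 of 40 genes higher on the right, but the median of all tested probe sets then fell to -0.67. Scaling to the spike-in controls or to the median moves all probe sets of an array alike. It cannot alter the gap between the members and all tested probe sets. After median scaling their medians in embryo 1 were 0.36 and -0.14. Quantile normalization could alter the gap, and after it these medians were 0.45 and -0.00. In embryo 2 the member median was -0.00, -0.20 and -0.05 under the quantile, median and spike-in settings, where all tested probe sets stood at 0.01, -0.14 and 0.01. In embryo 3 it was -0.03, 0.03 and 0.02, against 0.01, 0.08 and 0.07. The part of these scaling measures in the shift was not tested.

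**Figure D3:**
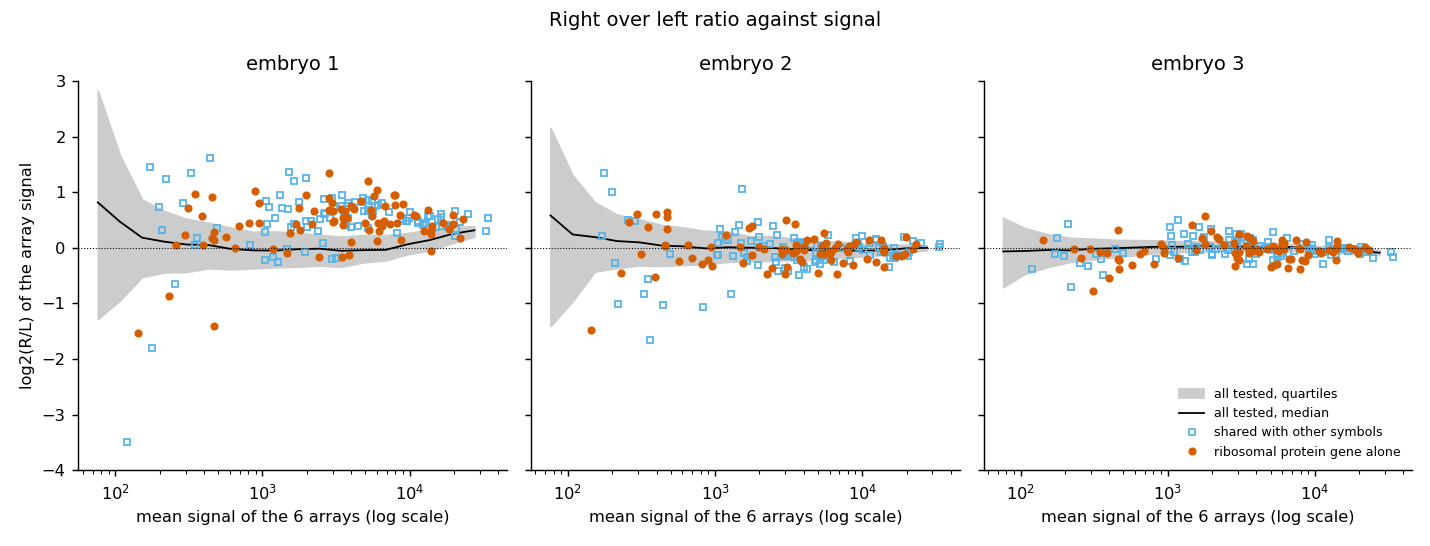
Log2(R/L) of each probe set (vertical axis) against its mean signal over the 6 arrays (log scale), in embryos 1, 2 and 3. Filled points are the 83 tested probe sets of ribosomal protein genes, open squares the 100 shared with other symbols, and the line and band are the median and quartiles of all tested probe sets. In embryo 1 most members lie above the band between 1000 and 10000, with the signals as deposited, and in embryos 2 and 3 they lie around it.

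Markers of other cell types stood out in the same pool as well. The 9 markers of motoneurons (Mnx1, Isl1, Isl2, Lhx3, Lhx4, Chat, Slc18a3, Slc5a7 and Prph) all reached 200, and their summed signal was 42740 in the left and 42527 in the right pool of embryo 1, 33232 against 29773 in embryo 2 and 24997 against 25078 in embryo 3, so the labelled cell type was present on both sides. The 12 mesenchyme and sclerotome markers summed to 17876 in the right pool of embryo 1 and to 1326 to 2802 in the others, and all 12 were higher on the right there (8 of 12 in each other embryo). The 9 skeletal muscle markers summed to 4599 in that pool and to 328 to 590 elsewhere, and 7 of them reached 200 in that pool and none in any other. Markers of dividing progenitors summed to 9235 and 12866 in embryo 1 and to 12850 to 14013 in the other pools. Erythroid markers summed to 20326 and 36514 in embryo 1, with a range of 22635 to 37529 elsewhere, and endothelial markers to 1440 to 2293 over the 6 pools. The part of these cell types in the ribosomal protein shift was not tested, and in such captures fewer cells of a type and less RNA per cell cannot be told apart.

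Probe sets of 1 gene did not always give 1 answer. For 19 genes 2 or more probe sets were tested (62 in all), and the mean signals of the probe sets of a gene spanned a median of 5.30-fold. Their mean log2(R/L) spanned a median of 0.22, below the median SD over embryos of a single probe set, 0.39, and in 11 of 19 genes the probe sets differed in the sign of the mean. By class of probe set, the median log2(R/L) in embryo 1 was 0.25 for 17 with plain identifiers, 0.45 for 26 that match several transcripts of 1 gene (_a_at), 0.48 for 37 with probes that can match other sequences (_x_at), and 0.10 for 3 that match several members of a family (_s_at). Members with a mean signal under 1000 had a median of 0.26 in embryo 1 (20 probe sets), and brighter ones 0.48 (63).

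Rps10, whose product lies at the mRNA entry side of the small subunit, had 6 tested probe sets, with mean signals from 143 to 4029, a 28.2-fold span. The brightest read 3336 against 5648 in embryo 1, 3853 against 3737 in embryo 2 and 3863 against 3738 in embryo 3, and the 5 brightest gave a log2(R/L) of 0.67 to 0.95 in embryo 1. The dimmest read 234 against 80.9, 251 against 89.6 and 95.9 against 105, which is -1.53, -1.49 and 0.13. In that probe set alone embryos 1 and 2 were lower on the right, and it met the fold rule toward the left once embryo 3 was left out. Rps9, a small subunit protein tied to decoding accuracy in bacteria and yeast, had the widest span, 34.5-fold. Its brightest probe set gave 0.77, -0.08 and -0.38 and its dimmest -0.87, -0.45 and -0.02, so they opposed each other in embryo 1.

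Bright probe sets of 1 gene could differ as well. Rpl22, an RNA-binding protein of the large subunit that T cell development needs in mouse, was read by 3 probe sets with mean signals of 13352 to 19742, which gave -0.05 to 0.67 in embryo 1. The 3 probe sets of Rpl7 gave -0.17 to 0.38 there. Rpl37a spanned 23.2-fold in mean signal, yet its mean log2(R/L) was 0.21 to 0.28. Rpl41 spanned 11.6-fold and its 4 probe sets gave 0.32 to 1.03 in embryo 1.

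**Figure D4:**
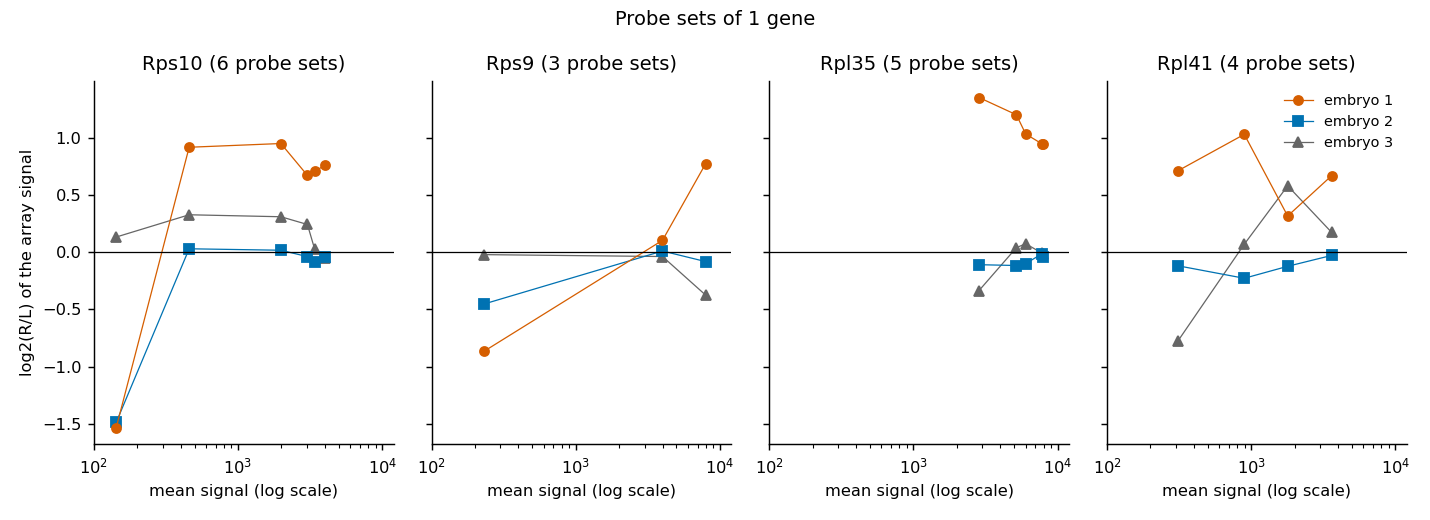
Log2(R/L) (vertical axis) against mean signal (log scale) for each tested probe set of Rps10, Rps9, Rpl35 and Rpl41, by embryo (circles 1, squares 2, triangles 3), with lines joining the probe sets of a gene. The 5 probe sets of Rpl35 lie at 0.94 to 1.35 in embryo 1, whereas the dimmest of Rps10 and Rps9 lie below 0 there, at -1.53 and -0.87.

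Between embryos, with the left and right pools of each embryo as its replicates, 1 of 83 member probe sets passed 0.05 (limma, moderated F), against 59 of all tested probe sets (0.270%), and 7 members passed at an unadjusted p under 0.05, against 3344 of all (15.3%). Each array pair was also 1 embryo, so differences between embryos and in the handling of a pair cannot be told apart. The probe set was the 1 tested for Rps25, a small subunit protein that certain viral mRNAs need to start translation. Its left and right pools read 516 and 508 (embryo 1), 1420 and 1671 (embryo 2), and 1579 and 1389 (embryo 3). Both pools of embryo 1 lay far below the other 4, by 3.01-fold against embryo 2 and 2.89-fold against embryo 3 (adjusted p = 0.0471). This p ranged from 0.00251 to 0.923 over 11 alternatives and missed 0.05 in 5 of them: it was 0.923 without embryo 1, 0.198 without embryo 3, 0.237 without the trend on signal, 0.115 with no signal limit and 0.0506 with the limit on the mean.

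The other 6 past the unadjusted threshold were 2 of 3 probe sets of Rps28, 2 of 4 of Rps20, 1 of 4 of Rpl41 and 1 of 3 of Rpl7. Rps28, a small subunit protein, had its lowest signals in embryo 2 at each of its 3 probe sets. The one with the smallest p read 5575 against 6944 in embryo 1, 3710 against 3792 in embryo 2 and 6525 against 5276 in embryo 3 (adjusted p = 0.162, limma), and it passed without embryo 1 (adjusted p = 0.0146). For Rps20 the 2 dim probe sets had their lowest signals in embryo 3, and 1 of them read 604 against 667, 412 against 602 and 282 against 243 in the 3 embryos (adjusted p = 0.173, limma). At the 2 bright ones of Rps20 the ratios between embryo means were 0.94 to 1.05. A probe set of Rpl41 read 2289 against 2847 in embryo 1, 1499 against 1375 in embryo 2 and 1101 against 1645 in embryo 3 (adjusted p = 0.153, limma), while the brightest one of that gene read 3192 and 5071 in embryo 1 and 3245 to 3666 in the other embryos.

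Rpl12, Rps9 and Rps4l, the last a copy of Rps4x, had the next smallest p at their brightest probe sets (adjusted p = 0.382, 0.407 and 0.588, limma). Rps9 read 5916 against 10103 in embryo 1, 9844 against 9296 in embryo 2 and 7144 against 5507 in embryo 3, where both pools of embryo 3 lay below those of embryo 2, and without embryo 1 its adjusted p was 0.00806. The median residual SD of the 83 member probe sets in this fit was 0.25 on the log2 scale, against 0.28 over all tested probe sets. At a mean signal of at least 1000 it was 0.25 for the 63 members and 0.18 for the 6985 tested probe sets.

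**Figure D5:**
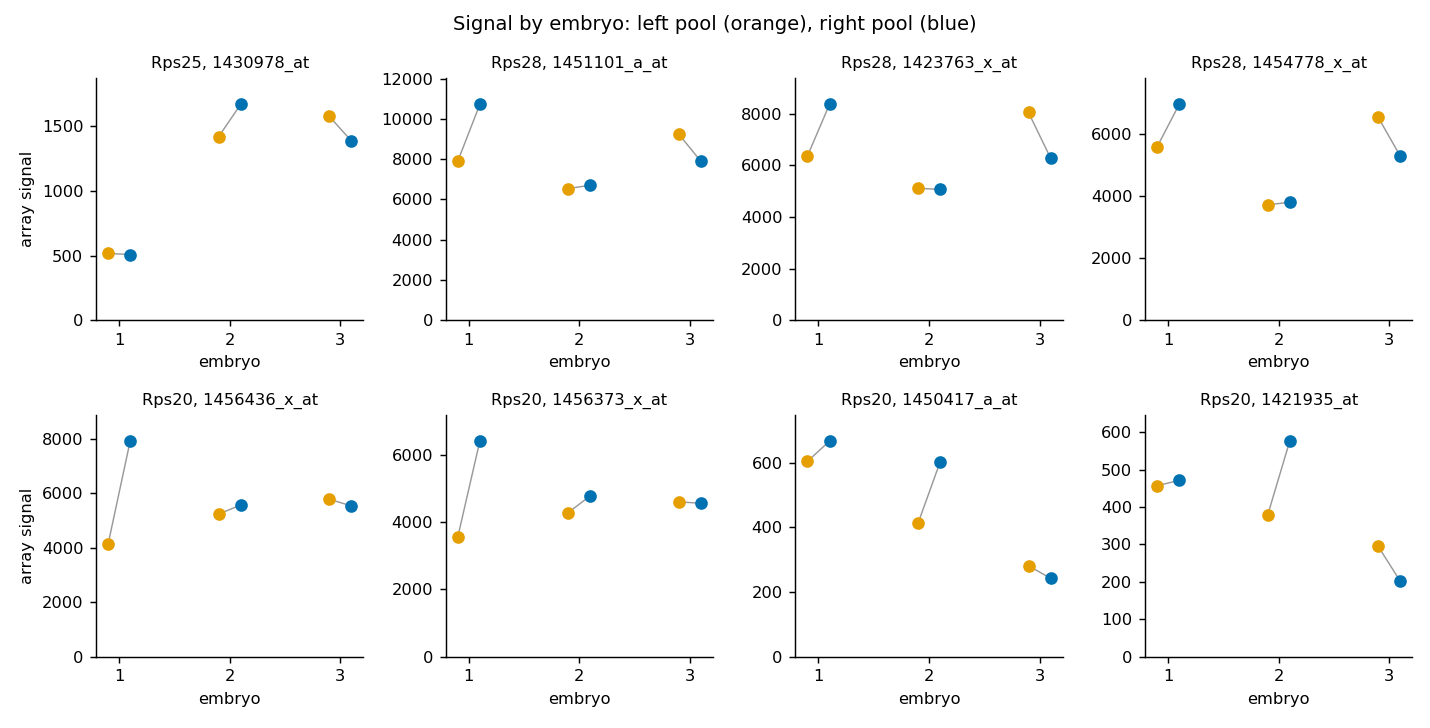
Array signal (vertical axes from 0) of the left (orange) and right (blue) pools of embryos 1, 2 and 3 for the tested probe sets of Rps25, Rps28 and Rps20, with lines joining the pools of an embryo. Rps25 reads 516 and 508 in embryo 1 and 1389 to 1671 in the other embryos.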

How the data were processed

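The authors computed MAS5 signals in Affymetrix Expression Console, and the deposited values are intensities on a linear scale for 45101 probe sets on 6 arrays. They were taken to log2 with no added constant and no further scaling. The 64 controls were left out of tests, and probe sets that reached 200 on at least 1 array were tested (21853). Detection calls were not used here, and the number of arrays limits the precision.

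Genes were assigned from the platform annotation, which named 1 gene for 34945 probe sets, several for 932 and none for 9160. Tests were made with limma 3.58.1 in R 4.3.3 (side and embryo as terms, variance trend on signal, Benjamini-Hochberg over all tested probe sets, threshold 0.05), and tables and plots with Python 3.11.15. The script was tested on simulated data with changes much larger than most described here. That test does not measure the power to find small differences. Left and right pools of an embryo were paired because they came from the same animal, and after subtraction of side means they correlated at 0.241, 0.215 and 0.495.

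Named genes were those past a side threshold (none), the 5 largest mean ratios per side, the 5 widest spreads of ratio and of signal between probe sets, the 5 smallest p between embryos, and genes of known role. Embryo calls outside that rule (single probe sets of Rps20 and Rpl41) were named after their values were seen. The members, gene lists and marker lists were chosen with earlier results of these data known, and no p was given for a list. Motifs were searched on both strands of RefSeq promoter windows. The alternatives tried were median scaling, quantile normalization, other signal limits, a constant of 50 added, a 2-fold limit, the limit in all 3 embryos, plain probe sets only, the mean of a gene's probe sets, no variance trend, no embryo term and each embryo left out. Scaling to the spike-in controls and adding the shared probe sets were chosen after the data were seen.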

Additional observations from a re-analysis of the deposited data

How the results depend on the processing

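Under every alternative run, limma called 0 member probe sets between left and right, also without the pairing of pools by embryo (0 calls with no term for embryo). The fold rule gave 0 members except with no signal limit, where it gave 1, a probe set of Rps18 whose highest signal was 52.6, and when embryos were left out (0 to 1), where the call without embryo 3 was the dim probe set of Rps10. Over all tested probe sets the rule gave 862, but 4501 with no limit, 1712 without embryo 3, 398 and 402 with embryo 1 or 2 left out, 530 with 50 added, 410 with the limit on the mean and 235 with a limit of 500.

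The median log2(R/L) of the member genes, 0.12, stayed within 1 SD of the embryo medians (0.33) under each alternative. That limit is wide, and leaving out 1 of 3 embryos can hardly pass it. The member median fell to 0.00 with plain probe sets only and to 0.03 with median scaling. Its sign turned to -0.09 with scaling to the spike-in controls, chosen after the data were seen, where all tested probe sets had -0.20. Leaving out embryos gave -0.04 to 0.24, and only the omission of embryo 1 took it below 0.

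Between embryos the 1 member call was lost (0 calls) with no signal limit, with the limit on the mean and with no variance trend, and it ranged from 0 to 3 when embryos were left out: 3 without embryo 1 (probe sets of Rps28 and Rps9), 3 without embryo 2 (Rps25, Rps20 and Rpl41) and 0 without embryo 3. Over all tested probe sets the calls ranged from 0 to 846. Of 237 pairs of a named gene and an alternative, 2 moved by 1 SD or more, those of Rpl7 and Rps25 with scaling to the spike-in controls. Many of the pairs could not move that far. Leaving out 1 of 3 embryos cannot shift a mean by 1 SD over the embryos. A signal limit leaves the ratio of a probe set unchanged, so the count is no measure of stability.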
